A study of Mus musculus with 21 samples.

Results

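Of the 7924 peaks that a Thio-ChIP experiment gave in mouse embryonic stem (ES) cells, 766 (9.67%, Clopper-Pearson 95% interval 9.02% to 10.3%) lay at H3K79me2 that was listed after Cdk1 inhibition and not in the DMSO control. These 766 regions, called members here, were chosen by overlap of deposited peak lists: each shared at least 1 bp with an H3K79me2 peak of inhibitor-treated cells and no bp with any H3K79me2 peak of DMSO-treated cells. In the inhibitor list as a whole, 13970 of 22352 H3K79me2 peaks (62.5%) shared no bp with a DMSO peak. That share counts H3K79me2 peaks and not Thio-ChIP peaks. For 418 of the 766 members, an inhibitor peak at the member did touch a DMSO peak elsewhere along its length. The overlap with H3K79me2 selected the members and is given as a description, without a test. The share of Thio-ChIP peaks that would meet the rule at displaced positions was not computed.

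Cdk1 is the cyclin-dependent kinase that drives entry into mitosis, and it phosphorylates many chromatin proteins. Thio-ChIP recovers DNA that is crosslinked to such substrates: an engineered, analog-sensitive Cdk1 transfers a thiophosphate group from a bulky ATP analogue to its targets, and an antibody to the alkylated group pulls down the targets with their DNA. H3K79me2, dimethylation of lysine 79 of histone H3, is laid down by the methyltransferase Dot1l and is known for covering the early part of transcribed genes, downstream of the start site, in ES cells as in other cells.

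All ChIP libraries used here came from V6.5 ES cells homozygous for analog-sensitive Cdk1 (Cdk1as/as), so the controls carry the engineered kinase too. H3K79me2 was mapped after 4 days of 1 µM 3-MB-PP1, the inhibitor that fits the engineered kinase, against 4 days of the solvent DMSO, in cells kept without feeders. The Thio-ChIP cells came from a different culture: they were plated in N2B27 medium and then received retinoic acid (500 nM) together with 3-MB-PP1 (1 µM) over 16 h to synchronize them at G2/M. They were then freed of the inhibitor and labelled for 25 min in a buffer with digitonin and the ATP analogue. Cells for Thio-ChIP had thus met the inhibitor as well, although their treatment label reads None. The labels tie 1 input library to each of the 3 peak lists, and the protocol also describes control cells labelled without the analogue, which were not analysed here. Each list rests on 1 ChIP library, so no value below has a replicate check, intervals cover counting error only, and the depth behind each list is unknown. In pooled cells, a mark carried by more cells and more of the mark per cell cannot be told apart.

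The inhibitor list was the longer one, with 22352 H3K79me2 peaks over 132.0 Mb against 13437 peaks over 59.9 Mb in DMSO. Most of the DMSO territory lay inside that of the inhibitor: 58.1 Mb were in both lists, 74.0 Mb in the inhibitor list alone and 1.82 Mb in the DMSO list alone. Of the DMSO peaks, 427 (3.18%) shared no bp with an inhibitor peak. How far depth or enrichment of the individual libraries set the lengths of the lists was not tested.

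The 3 lists used 1 build. In each of 20 chromosomes the Thio-ChIP peaks met the inhibitor peaks, and likewise the DMSO peaks, most often within 1 kb of no displacement, among displacements of up to 1000 kb either way. The share of Thio-ChIP peaks that touched an inhibitor peak was 33.7% to 51.3% per chromosome in place and 5.77% to 22.5% after a move of 100 kb. For DMSO peaks it was 24.0% to 40.4% in place and 2.79% to 13.5% after that move. These shares count any touch of a list. They do not show how far the share of members stands above that at displaced positions. The shared build was not GRCm38, because in 147 of 158 windows of 10 Mb with a clear match the Thio-ChIP peaks met GRCm38 gene starts only after a displacement of more than 3 kb. The other mouse build named in the submitters' processing notes is mm9. Coordinates are those of the lists, counted from 1, and no genes are named at the regions, since gene positions on the build of the lists were not used here.

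The other Thio-ChIP peaks fell into 3 classes. A total of 2756 (34.8%) touched H3K79me2 peaks of both lists, 96 (1.21%) touched DMSO peaks only, and 4306 (54.3%) touched neither list. Members thus made up 21.7% (20.4% to 23.1%) of the 3522 Thio-ChIP peaks at inhibitor H3K79me2. The opposite class, with DMSO peaks only, made up 3.37% (2.73% to 4.10%) of the 2852 Thio-ChIP peaks at DMSO H3K79me2. In the lists as a whole, 62.5% of inhibitor peaks shared no bp with a DMSO peak, and 3.18% of DMSO peaks none with an inhibitor peak. Of the 13970 inhibitor-only peaks (median length 1347 bp) 2.76% touched a Thio-ChIP peak. Of the 8382 inhibitor peaks with a DMSO peak (7247 bp) 37.7% did. The inhibitor list was also the longer list. With that list shortened by score to the number of peaks in the DMSO list, an alternative added after seeing the data, 637 peaks met the rule. That setting matches the number of peaks and not the bp covered, so it cannot show how far the longer list set the count.

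Most members met the mark at their flank and not at their centre. A median of 351 bp (quartiles 189 and 646 bp) of a member lay in an inhibitor peak, which was 22.7% of its length (quartiles 11.4% and 38.1%). The centre of the member lay in an inhibitor peak in 120 of 766 cases (15.7%), so that 646 centres were outside the mark that put the region in this class. In Thio-ChIP peaks touching both lists, the median share of the peak inside inhibitor H3K79me2 was 48.9%, and 48.5% of centres were inside. The rule partly sets this contrast. It bars any DMSO bp from a member, and 58.1 of the 59.9 Mb of DMSO peaks lay inside inhibitor peaks.

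In most members 1 end of a single inhibitor peak lay within the Thio-ChIP peak, and from there the H3K79me2 peak ran off to the right in 324 members and to the left in 346. The inhibitor peak covered the whole member in 62 cases, and lay wholly within the member in 18, and 16 members touched 2 inhibitor peaks. The 62 covered members had a median Thio-ChIP score of 126 (range 92 to 727) and lay in inhibitor peaks with a median length of 9507 bp.

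The inhibitor H3K79me2 peaks that hold the members, called hosts here, were of 2 kinds. In 418 members (54.6%, interval 51.0% to 58.1%) the host also touched a DMSO peak elsewhere along its length, so the host lay partly in H3K79me2 listed in DMSO, which did not reach the Thio-ChIP peak. In the other 348 members (45.4%) no host touched any DMSO peak. In Thio-ChIP itself the median score of these kinds was 162.5 with a DMSO peak in the host and 155.5 without, and the median length 1591.5 bp and 1573.5 bp.

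**Figure D1:**
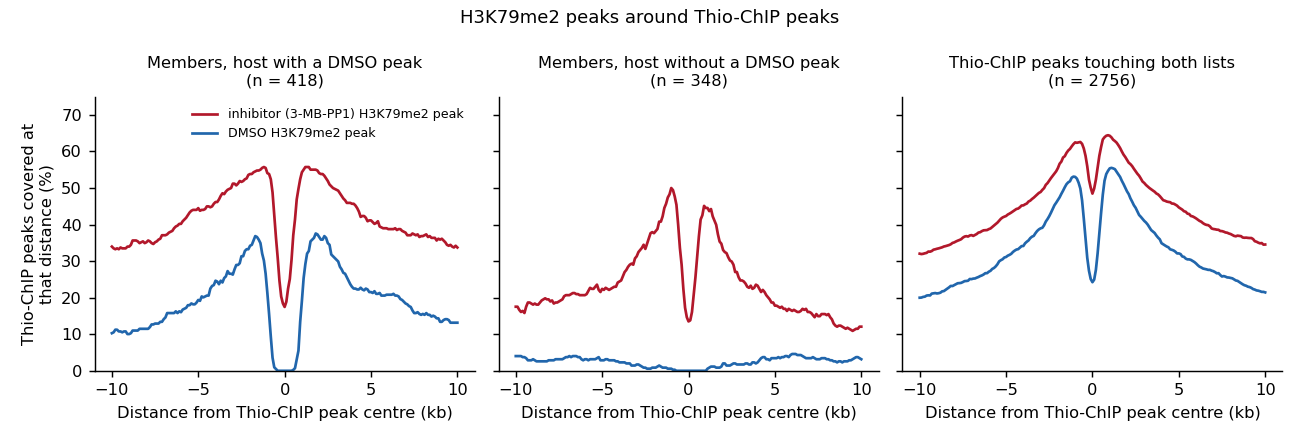
Share of Thio-ChIP peaks (y axis, %) whose position at a given distance from the peak centre (x axis, kb, either side) lies in an inhibitor H3K79me2 peak (red) or a DMSO H3K79me2 peak (blue), for the 418 members with a DMSO peak in the host, the 348 members without one, and the 2756 Thio-ChIP peaks touching both lists. Each curve dips at the centre, where 17.5%, 13.5% and 48.5% of peaks were covered in the inhibitor list, and the DMSO curves of members are at 0 there because the rule requires it.

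Around members whose host had a DMSO peak, the inhibitor list covered more positions near the centre than the DMSO list, which the rule requires within the peak itself. At 1 kb to the right of the centre 54.3% were covered in the inhibitor list and 19.1% in the DMSO list, and at 2 kb 54.1% and 36.6%. At 10 kb the shares were 33.7% and 13.2%. On the left the values at 1 kb were 54.1% and 21.3%, close to those on the right.

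Around members whose host had no DMSO peak, coverage in the inhibitor list dropped off within a few kb. It stood at 44.5% at 1 kb to the right, 33.0% at 2 kb, 17.8% at 5 kb and 12.1% at 10 kb, while the DMSO list covered 0%, 2.01%, 3.45% and 3.16% at these distances. To the left the inhibitor list covered more, with 50.0%, 37.6%, 22.4% and 17.5%, and the DMSO list covered 0.575%, 0.862%, 2.87% and 4.02%. Left and right follow the coordinates and not the direction of genes, and the difference between sides was not tested. For comparison, Thio-ChIP peaks touching neither list had inhibitor H3K79me2 at 6.25% and DMSO H3K79me2 at 2.39% of positions 10 kb to the right. These are shares at single positions: 52 of the 348 members without a DMSO peak in the host had one within 5 kb of the Thio-ChIP peak, and 75 within 10 kb.

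The distance from a member to the nearest DMSO peak differed between the kinds, as their definition makes likely. It had a median of 250 bp (quartiles 96.3 and 637 bp, at most 14783 bp) where the host touched a DMSO peak, and 37260 bp (quartiles 12783 and 88065 bp, at most 1233961 bp) where it did not. Of all members, 108 lay within 100 bp of a DMSO peak, 296 within 500 bp and 357 within 1000 bp, while 277 lay more than 10 kb and 72 more than 100 kb away. All 72 distant members had hosts without a DMSO peak, as had 10 of the 357 within 1000 bp.

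**Figure D2:**
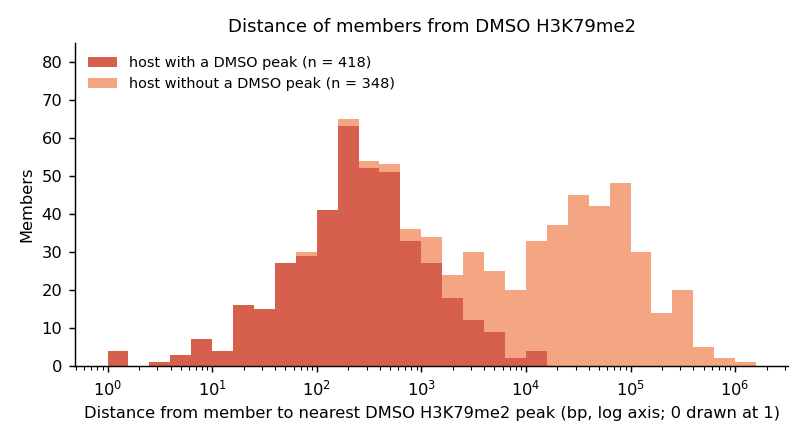
Number of members (y axis) by distance to the nearest DMSO H3K79me2 peak (x axis, bp, log axis, with 0 drawn at 1), stacked by whether the host inhibitor peak touches a DMSO peak (dark, n = 418) or not (light, n = 348). The dark bars have a median of 250 bp and the light bars one of 37260 bp.

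Where the host touched a DMSO peak, the mark at the member was mostly the outer end of the host. In 358 of these 418 members 1 end of the host fell within the Thio-ChIP peak. The DMSO peaks of such a host can then lie only on the side toward which it runs. They must end short of the member, so that this order follows from the rule. The inhibitor peak ended a median of 723 bp (quartiles 442 and 1251 bp, at most 15944 bp) beyond the end of the nearest DMSO peak on that side. That size adds the bp shared with the member to the gap between member and DMSO peak. The rule thus limits it from below, and it is no free measure of how far the mark extended. In 17 members (4.07% of the 418) DMSO peaks that touch the hosts lay on both sides. In 13 of these 17 a single host spanned the member, and in the other 4 the member lay between 2 hosts, each with its DMSO peaks on its own side. The nearest DMSO peak was 5 to 521 bp from them.

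In Thio-ChIP peaks that touch both lists, the rule does not set which end reaches further. In 1776 of them 1 end of a single inhibitor peak and 1 end of a single DMSO peak fell within the Thio-ChIP peak from the same side. There the inhibitor end reached further in 1433 cases (80.7%), the DMSO end reached further in 341, and the median difference was 180 bp (quartiles 38 and 365 bp). These differences cannot exceed the length of the Thio-ChIP peak, and peaks that either list covered whole were left out. Peak ends away from Thio-ChIP peaks were not compared, and the inhibitor list covered 132.0 Mb against 59.9 Mb in DMSO. The values are thus not shown to be particular to Thio-ChIP peaks. Where an inhibitor peak touches a Thio-ChIP peak and every DMSO peak falls short of it, the rule makes that peak a member. Among Thio-ChIP peaks at inhibitor H3K79me2, the DMSO list thus decides the class. The sets also differed in the inhibitor list. Members with a DMSO peak in the host had a median of 358.5 bp in an inhibitor peak and 17.5% of centres inside. All Thio-ChIP peaks touching both lists had 902.5 bp and 48.5%. This difference, too, is partly set by the rule, which bars DMSO bp from members.

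Hosts with a DMSO peak had a median length of 9219 bp (quartiles 4335 and 19341 bp), the longest spanned 120045 bp, and 58.2% of their length was outside DMSO peaks. The host held more than 1 DMSO peak for 159 of the 418 members, more than 5 for 16, and at most 11. For comparison, the 5225 inhibitor peaks that touched a DMSO peak but no Thio-ChIP peak had a median length of 5940 bp, with 50.3% of their length outside DMSO peaks, and the authors' H3K79me2 score had a median of 42 in both sets. All 8382 inhibitor peaks that touched a DMSO peak had a median score of 50, a median length of 7247 bp and 42.4% of their length outside DMSO peaks. By Thio-ChIP peak, the host had a median score of 41.5 and a median length of 9110.5 bp for these members, against 75 and 11019.5 bp for Thio-ChIP peaks touching both lists. The share outside DMSO peaks is partly set by the rule, which requires the stretch under the member to lie outside them.

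Hosts without a DMSO peak stood above the rest of the inhibitor-only peaks in the authors' score. The 356 such hosts had a median score of 21 (quartiles 15 and 27) and a median length of 2141 bp, against 15 (quartiles 13 and 19) and 1336 bp in the 13584 inhibitor-only peaks without a Thio-ChIP peak. Their median score lay at the 54.8th percentile of the whole inhibitor list, and that of the others at the 29.9th. Longer peaks have more room to meet a Thio-ChIP peak, so the lengths belong beside these scores.

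The share of inhibitor-only H3K79me2 peaks that met a Thio-ChIP peak was highest among those with the highest scores. Over 4 bands of equal number, from low to high score, it was 1.46% (1.09% to 1.92%), 1.52%, 1.95% and 6.13% (5.35% to 6.97%). The bands had scores of 10 to 13, 13 to 15, 15 to 19 and 19 to 79, so peaks with a score at a shared limit were split between bands. The median length of the H3K79me2 peaks also went up along these bands, at 941, 1236.5, 1760.5 and 2331 bp. Per Mb that the peaks of a band covered, 12.9, 9.37, 7.77 and 16.6 peaks met a Thio-ChIP peak. By length, the values thus went down over the lower bands, and the highest band stood less far above the lowest. The part of length in the shares was not tested.

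**Figure D3:**
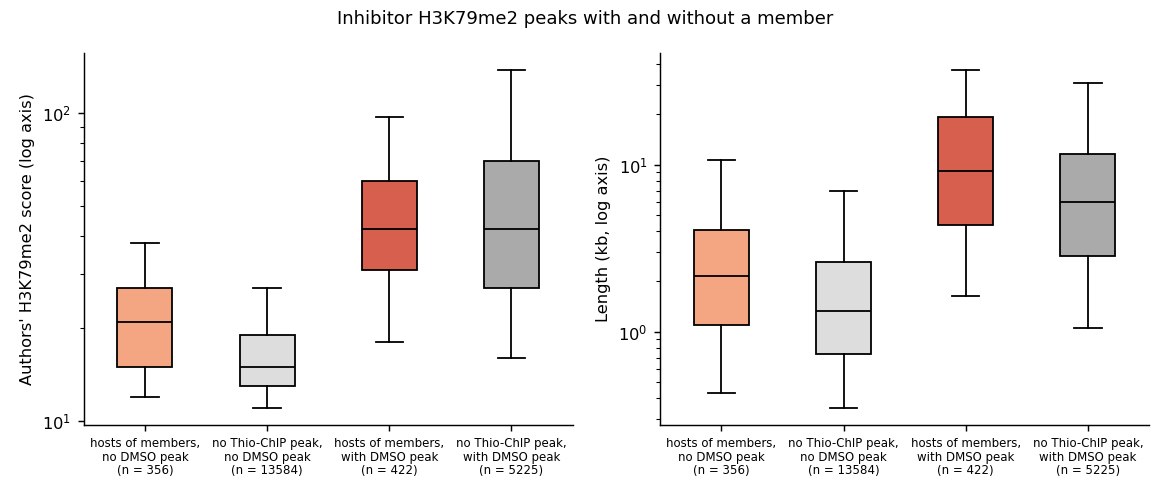
Authors' H3K79me2 score (left, log axis) and length (right, kb, log axis) of inhibitor H3K79me2 peaks that hold members beside those that touch no Thio-ChIP peak, without and with a DMSO peak. Boxes span the quartiles with the median as a line, and whiskers reach the 5th and 95th percentiles; hosts without a DMSO peak have a median score of 21 against 15, and a median length of 2141 bp against 1336 bp.

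In the Thio-ChIP list, members lay near the middle of the scores. Their score, which comes from the authors and whose scale the sources do not state, ran from 90, the lowest of the list, to 966, with a median of 157.5 (quartiles 117 and 220). Peaks touching both lists had a median of 176 (quartiles 124 and 256), those touching DMSO only one of 171.5, and those touching neither one of 143 (quartiles 111 and 200). The median of the whole list was 154, and 52.0% of members lay above it. Median lengths were 1582.5 bp in members, 1704 bp in peaks touching both lists, 1712 bp in those touching DMSO only and 1562 bp in those touching neither.

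**Figure D4:**
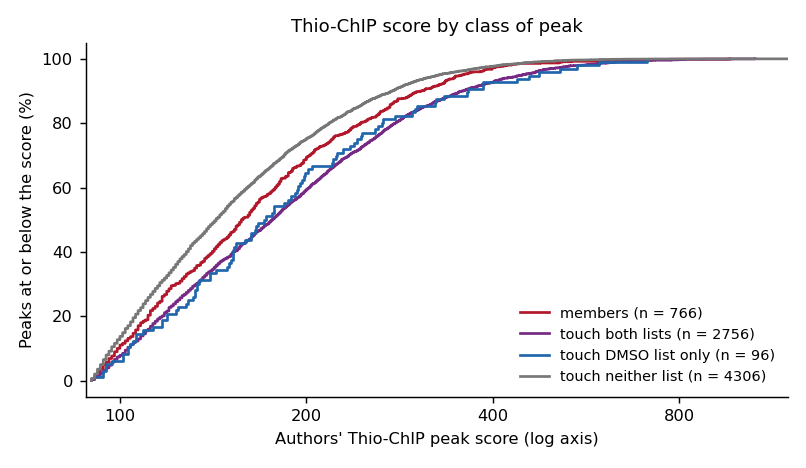
Cumulative share of peaks (y axis, %) at or below the authors' Thio-ChIP score (x axis, log axis, drawn to 1200) for members and the other 3 classes of Thio-ChIP peaks. The curve of the members (median 157.5) runs between those of peaks touching both lists (median 176) and neither list (median 143).

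The share of members differed little along the score, while peaks touching both lists took a larger share at higher scores and peaks touching neither a smaller one. Over 5 bands of equal number, from the lowest to the highest Thio-ChIP scores, members made up 8.96%, 9.09%, 10.4%, 10.1% and 9.78% of peaks, with overlapping intervals (7.60% to 10.5% in the lowest band and 8.36% to 11.3% in the highest). Peaks touching both lists made up 25.4%, 30.5%, 31.2%, 38.2% and 48.7% of the same bands. Peaks touching neither made up 64.7%, 59.5%, 57.1%, 50.3% and 40.0%. Those touching DMSO only made up 0.946% (0.531% to 1.56%) of the lowest band and 1.51% (0.973% to 2.24%) of the highest, with overlapping intervals. Neighbouring bands share their limiting score, and peaks of that score were split between them. Among the 100 Thio-ChIP peaks with the highest scores 7 were members.

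**Figure D5:**
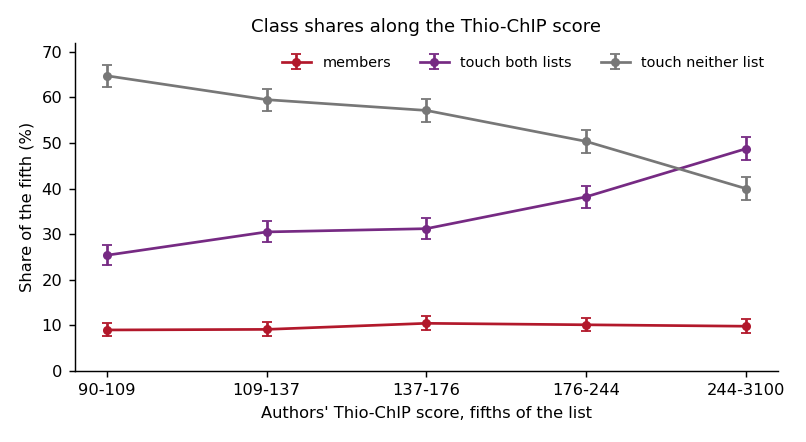
Share of each of 5 equal bands of the Thio-ChIP list (y axis, %) taken by members, peaks touching both lists and peaks touching neither, from the lowest to the highest scores (x axis, score range of the band); bars are Clopper-Pearson 95% intervals for counting error. Members stay between 8.96% and 10.4%, whereas peaks touching both lists go up to 48.7% in the highest band.

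Within the members, the Thio-ChIP score had little relation to the H3K79me2 around them. Over all 766, which share the same libraries and so are no replicates, the Spearman rank correlation was 0.045 between the Thio-ChIP score and the H3K79me2 score of the host, -0.11 with the share of the member inside inhibitor H3K79me2 and 0.0043 with the distance to the nearest DMSO peak. It was 0.46 with the length of the Thio-ChIP peak. These are descriptions of 1 pair of lists.

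The member with the highest Thio-ChIP score was chr14:63378370-63381079 on the build of the lists, with a score of 966, rank 4 of all 7924 Thio-ChIP peaks. Its left 598 bp (22.1% of 2710 bp) lay in the end of a 48672 bp host that held 8 DMSO peaks, the nearest 96 bp from the Thio-ChIP peak. Along that host the DMSO list thus held several separate peaks, none of which reached the region. Similar in form was chr17:47275116-47279260, with a score of 585 and 895 bp in a 23216 bp host that held 3 DMSO peaks, the nearest 29 bp away.

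The region chr12:81535471-81538465 had a score of 770 and was of the other kind. Its host of 6058 bp touched no DMSO peak, reached 160 bp (5.34%) into the Thio-ChIP peak, and the nearest DMSO peak was 27864 bp away. On the same chromosome chr12:78338736-78341140 scored 613, shared only 71 bp (2.95%) with a host of 10042 bp and was 275619 bp from DMSO H3K79me2. High Thio-ChIP scores therefore also occurred with a short overlap and with no listed DMSO peak nearby.

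Among the 10 members with the highest scores, 2 lay wholly inside inhibitor H3K79me2. The first was chr19:7053229-7055510, with a score of 727, in an 8496 bp host with a score of 49 that held 1 DMSO peak, 1155 bp from the Thio-ChIP peak. The other was chr11:59952461-59954699, with a score of 518, in a 4584 bp host that held none. That host had an H3K79me2 score of only 14, at the 22.6th percentile of the inhibitor list, and the nearest DMSO peak was 14316 bp away.

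The rest of the 10 were cases of a host end within the Thio-ChIP peak. In chr17:87506008-87507963 (score 619) the host reached in by 360 bp, and the DMSO peak was 1792 bp away. In chr5:125341657-125344258 (score 536) the host, of 19342 bp and with an H3K79me2 score of 64, reached in by 878 bp, with DMSO H3K79me2 at 564 bp. In chr6:108608648-108611204 (score 512) the figures were 328 bp and 755 bp. The hosts of these regions each held 1 DMSO peak. The last, chr5:138181419-138183674 (score 513), had a host of 1835 bp without a DMSO peak and with an H3K79me2 score of 14. It also had the closest Thio-ChIP neighbour of the 10, at 2737 bp.

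At the limits of the rule, single bases decided membership. Just inside, chr1:37596896-37597951 shared 3 bp with an inhibitor peak, chr2:121631767-121633528 shared 4 bp and chr11:82683912-82685187 shared 7 bp, with Thio-ChIP scores of 92, 133 and 114. On the DMSO side chr3:10439222-10440510 abutted a DMSO peak without sharing a base, and chr2:103324736-103326120 and chr4:150227944-150229919 were 1 bp from one. Just outside, chr4:4719511-4721246 and chr4:98786678-98788251 shared 1 bp with a DMSO peak while 791 and 418 bp lay in an inhibitor peak. Also outside, chr1:43501661-43503583 and chr5:25004785-25006329 lay 1 bp from an inhibitor peak and touched neither list.

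Members were spread over the genome, mostly 1 to a host. Of 778 host peaks, 4 held 2 members and none held more, and 758 members were alone in their hosts. In 9 members the host also held a Thio-ChIP peak that touched DMSO H3K79me2. The nearest other Thio-ChIP peak of any class was a median of 61297 bp away, against 55313 bp for peaks touching both lists and 55125 bp for those touching neither, and 13.2% of members had one within 10 kb, against 12.2% and 18.5%. The kinds of member lay on either side of those medians, with 75010 bp where the host touched a DMSO peak and 45800.5 bp where it did not.

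All 20 chromosomes of the lists held members. The share of Thio-ChIP peaks that were members was lowest on chromosome 13, with 19 of 278 (6.83%, interval 4.16% to 10.5%), and highest on chromosome 14, with 37 of 271 (13.7%, interval 9.80% to 18.3%). These intervals overlap, and the 2 chromosomes are the extremes of 20. Chromosome 11 held the most members, 65 of 681 Thio-ChIP peaks, and the X chromosome the fewest, 11 of 104. The host touched a DMSO peak in 54.6% of all members, and the extremes of the 20 chromosomes were 31 of 43 members on chromosome 2 and 14 of 44 on chromosome 7, picked after their values were seen.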

How the data were processed

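The deposited peak lists give, for each peak, a chromosome, a start, an end, a name and the authors' score, whose scale the sources do not state. Per the file contents, peak names of the H3K79me2 lists pair each ChIP library with its own input. Per the submitters' processing notes, Bowtie, Bowtie2 2.2.9, MACS 1.4.2 and MACS2 2.1.1 served the series, along with mm9 and GRCm38, with no role given. Starts were read as counted from 0. Overlaps of at least 1 bp were found in Python 3.11.15 with pandas 2.3.3, checked against bedtools 2.31.1 (766 members each) and tested on simulated data. Distances are the bases between peaks. GRCm38.p6 gene starts from RefSeq served only for the check of the build, and no sequence was read by coordinates. The planned joins of members to gene starts and to the Dot1l KO expression tables were therefore not run. The regions named are the 10 with the highest Thio-ChIP score and those nearest to the limits of the rule. Members, classes and limits were chosen with earlier results of these data known, and the division of hosts by DMSO peaks was chosen after seeing the data. Samples were grouped by their titles.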

Additional observations from a re-analysis of the deposited data

How the results depend on the processing

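The number of members depended on the overlap asked for. It was 120 with at least 50% of the Thio-ChIP peak inside inhibitor H3K79me2 and 409 with no DMSO peak within 1 kb, against 766 as reported. With only Thio-ChIP peaks above the median score it was 398. That setting shortens the Thio-ChIP list itself and so lowers the count by construction, and the share of members differed little along the score. The number stayed within 1.5 times of 766 with only inhibitor peaks above the median score (595). It also did so with the inhibitor list shortened by score to the number of peaks in the DMSO list (637), which does not match the bp covered. With starts read as counted from 1 it was 765, and the last pair of settings was chosen after seeing the data. The share of members whose host touched a DMSO peak, 54.6% as reported, was 60.8% with at least 50% inside, 17.4% with no DMSO peak within 1 kb, 66.6% with inhibitor peaks above the median score and 63.4% with the shortened list. It was 56.0% and 54.5% under the remaining settings. The 1 kb setting removes mostly members with a DMSO peak in the host, of which 347 of 418 lay within 1 kb, against 10 of 348 without. Hosts with a DMSO peak also had higher scores (median 42 against 21). A cut of the inhibitor list by score thus keeps more of that kind, 396 against 199 with peaks above the median score. No paired analysis was possible because each peak list rests on 1 library, and the expression tables with replicates were not joined to the regions. The gene start share and the Dot1l KO alternatives were not run, for the same reason of build. The unknown depth of the libraries limits what absence from the DMSO list says: it is absence of a listed peak, not of the mark.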
